A study of Mus musculus with 6 samples.

Results

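The genes described here are 9 mouse genes of epithelial water and salt transport: the aquaporins Aqp1, Aqp4, Aqp5 and Aqp11, the chloride channel Cftr, the potassium channel Kcnq1, the sodium pump subunits Atp1b1 and Atp1b3, and the pump regulator Fxyd3. They were taken by symbol from a table of 52249 genes, and each symbol matched 1 row. The names had been picked with the difference between the study's 2 groups already known, so that difference is given for them as a description without a test. The 6 libraries, sequenced from the 3′ end of mRNA, came from mouse intestinal organoids, epithelial cultures that grow as hollow bodies around a lumen. All 6 carried a knockout of Apc, a tumour suppressor that restrains WNT signalling. In 3 of them (control here) this was the only stated change, and the other 3 were labelled as also overexpressing IGF2BP3, an RNA-binding protein (OE-labelled here). The labels do not give the organoids' intestinal segment, the Cre or guide behind the knockout, the overexpression vector, the number of mice or whether replicates came from separate cultures. The p-values below therefore measure only the spread between these libraries, which may be technical.

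An epithelium moves water by moving salt. The sodium pump, made of an alpha and a beta subunit and often a small FXYD protein, keeps sodium low in the cell and so drives the cotransporter NKCC1 (Slc12a2) to load chloride from the blood side. Chloride leaves into the lumen through CFTR and other channels, basolateral potassium channels such as KCNQ1 with KCNE3 hold the voltage that drives its exit, and water follows through aquaporins and between cells. In the intestine this secretion is a function of the crypts, and CFTR-dependent swelling of intestinal organoids is a widely used readout of it.

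Libraries held 2180116 to 2519917 counts, and all 3 OE-labelled totals lay above the 3 control totals. A floor of 3 counts corresponded to 1.18 to 1.41 CPM (counts scaled to the effective library size). The control libraries held 1, 0 and 0 counts of endogenous Igf2bp3 and the OE-labelled libraries likewise 1, 0 and 0, so the counts of the mouse gene gave no check of the overexpression label, and every direction below is that of the label. The library names put the groups in separate series, so group and library series cannot be told apart. In the edgeR fit, 29.2% of 10687 tested genes passed an adjusted p of 0.05, 16.5% higher and 12.7% lower in OE-labelled libraries. Across 10679 genes, which are not independent replicates, the log2 fold change had a Spearman rho of 0.38 with transcript GC content.

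Of the 9 genes, 6 had all 3 OE-labelled values above all 3 control values: Aqp1, Aqp5, Kcnq1, Atp1b1, Atp1b3 and Fxyd3. The same separation upward held for 25.3% of all tested genes; since this contrast was used to pick the names, nothing is read from that difference. Aqp11 and Cftr overlapped between groups, and Aqp4 was at 0 in every library. The count filter was passed by 7 of the 9, with Cftr and Aqp4 below it. Among these 7 the ratio of OE-labelled to control mean CPM ran from 1.27 (Aqp11) to 3.96 (Aqp1), and the median log2 fold change was 0.71, against 0.04 over all tested genes.

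**Figure D1:**
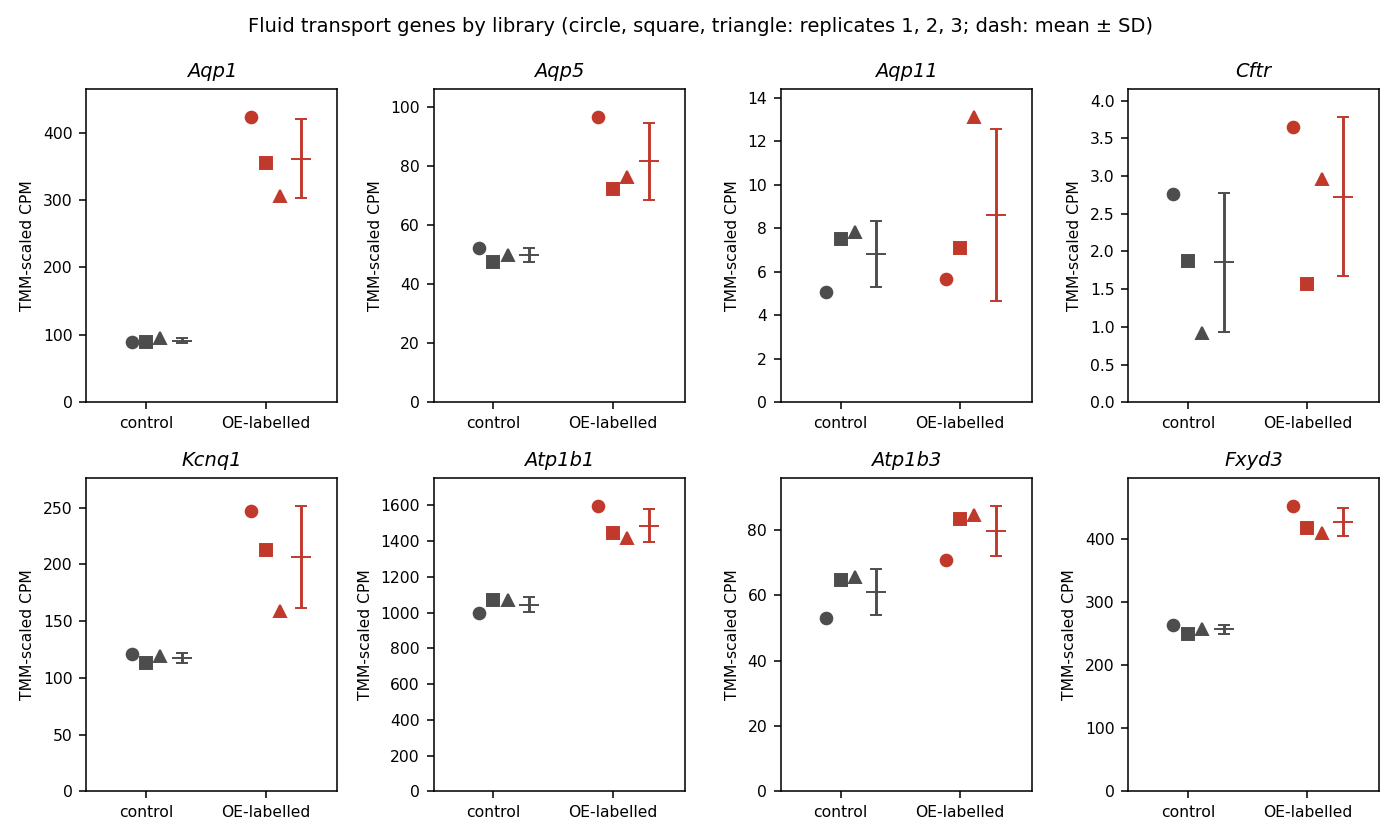
TMM-scaled CPM (vertical axis, from 0) of 8 genes in the 3 control (grey) and 3 OE-labelled (red) libraries, with circle, square and triangle for replicates 1, 2 and 3 and a dash with bars for the mean and SD. Aqp4, at 0 everywhere, is not drawn. The groups lie apart for Aqp1, Aqp5, Kcnq1, Atp1b1, Atp1b3 and Fxyd3 and overlap for Aqp11 and Cftr.

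Upstream sequence is shown for 3 of the genes that lay higher, Aqp1, Atp1b1 and Fxyd3, as examples of members whose OE-labelled values lay above control together. These bases lie upstream of the transcripts and do not enter the transcript GC content given above. The stretches are the 240 bases from 250 to 11 before the RefSeq start (build GRCm38.p6), read 5′ to 3′ on the gene's strand: Aqp1 at chr6:55336049-55336288 (plus), Atp1b1 at chr1:164458366-164458605 (minus) and Fxyd3 at chr7:31076708-31076947 (minus). Capitals mark matches on either strand to GGGCGG (the GC box, CCGCCC on the other strand), CTTTGA (the core of the TCF/LEF motif, TCAAAG on the other strand) or TATAAA (the TATA box, TTTATA on the other strand).
Aqp1: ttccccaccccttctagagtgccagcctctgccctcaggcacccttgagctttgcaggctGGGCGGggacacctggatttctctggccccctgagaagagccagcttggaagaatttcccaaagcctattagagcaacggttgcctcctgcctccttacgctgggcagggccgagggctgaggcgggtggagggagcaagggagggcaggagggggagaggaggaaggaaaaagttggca
Atp1b1: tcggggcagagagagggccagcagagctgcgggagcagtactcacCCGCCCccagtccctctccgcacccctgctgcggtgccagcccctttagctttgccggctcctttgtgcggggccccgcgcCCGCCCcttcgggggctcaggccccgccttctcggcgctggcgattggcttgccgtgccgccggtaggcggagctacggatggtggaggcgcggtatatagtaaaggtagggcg
Fxyd3: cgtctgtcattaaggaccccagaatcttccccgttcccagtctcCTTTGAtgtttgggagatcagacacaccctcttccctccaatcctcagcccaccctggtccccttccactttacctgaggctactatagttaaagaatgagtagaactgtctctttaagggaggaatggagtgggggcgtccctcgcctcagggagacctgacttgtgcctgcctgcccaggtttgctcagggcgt
The Aqp1 stretch holds 1 GC box and has 61.7% GC. The Atp1b1 stretch holds 2 GC boxes, both on the opposite strand, and has 70.4% GC. The Fxyd3 stretch has 54.6% GC, no GC box and 1 TCF/LEF core. Over 32851 RefSeq promoter windows of the same length, 31.3% hold a GC box, 13.5% a TCF/LEF core and 12.1% a TATA box. A RefSeq window was found for 7 of the 9 genes. Among those not shown, Aqp5 held 2 GC boxes, Cftr 6 and Aqp11 0, and Atp1b3 held 5 in window 1 and 0 in window 2. None of these windows held a TCF/LEF core or a TATA box. No one of the 3 motifs was found in all 3 stretches.

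Aqp1 (ENSMUSG00000004655, GRCm38 chromosome 6, 55336432 to 55348555, plus strand) encodes a water-selective channel known from red cells, kidney proximal tubule, bile duct and capillary endothelium. It was counted at 89.9, 88.7 and 95.4 CPM in control replicates 1, 2 and 3 and at 423, 355 and 306 CPM in the OE-labelled replicates. The control libraries were nearly level, and the lowest OE-labelled value was 3.21 times the highest control value. The log2 fold change was 1.98 (SE 0.13). The OE-labelled libraries differed among themselves by 1.38 times, with a CV of 16.3% against 3.91% in control. In bulk libraries, more cells that express a gene and more RNA per cell cannot be told apart.

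Aqp5 (ENSMUSG00000044217, chromosome 15, 99590782 to 99594829, plus strand) encodes the water channel of the apical membrane of salivary, lacrimal and airway glands, also found in pyloric glands of the stomach. Its values were 52.1, 47.4 and 49.8 CPM in control and 96.4, 72.0 and 76.1 CPM in OE-labelled libraries. All OE-labelled libraries lay higher, replicate 1 by the widest margin. The log2 fold change was 0.71 (SE 0.14). Its neighbours on the chromosome, Aqp2 and Aqp6, 6.2 and 6.6 kb away, had 0 counts in all 6 libraries, so within this gene cluster only Aqp5 was counted.

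Aqp11 (ENSMUSG00000042797, chromosome 7, 97724006 to 97738289, minus strand) encodes an unorthodox aquaporin that resides largely in the endoplasmic reticulum. Control libraries held 11, 16 and 17 counts of it and OE-labelled libraries 14, 18 and 31, or 5.07, 7.51 and 7.83 CPM against 5.67, 7.08 and 13.1 CPM. The groups overlapped, and OE-labelled replicate 3 alone lay above the control range. The log2 fold change was 0.33 (SE 0.35), and it became -0.09 without that library. The ratio of summed counts was 1.26, with a 95% counting interval (exact binomial) of 0.841 to 1.89.

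Aqp4 (ENSMUSG00000024411) encodes the main water channel of astrocytes and of the basolateral membrane of several epithelia. It had 0 counts in every library, which allows a level of up to 1.18 to 1.41 CPM depending on the library (counting error only). No fold is given. Of the 8 other listed aquaporins, 5 were at 0 counts throughout (Mip, Aqp2, Aqp6, Aqp8 and Aqp12), and Aqp8, a channel of differentiated surface colonocytes, was one of them. Only Aqp9, an aquaglyceroporin that also passes glycerol, was abundant enough to be tested. Its counts were 14, 12 and 7 in control libraries against 13, 27 and 18 in the OE-labelled group (log2 fold change 0.62, SE 0.36, edgeR adjusted p = 0.218). The aquaporins counted in both groups at tested levels were therefore Aqp1, Aqp5, Aqp9 and Aqp11.

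Cftr (ENSMUSG00000041301, chromosome 6, 18170687 to 18322768, plus strand) encodes the cAMP-gated chloride channel mutated in cystic fibrosis. It was near the floor, with 6, 4 and 2 counts in the control group against 9, 4 and 7 in the other (2.77, 1.88 and 0.921 CPM against 3.65, 1.57 and 2.96 CPM). The groups overlapped. The ratio of summed counts, 20 against 12 and scaled for depth, was 1.46 with a 95% counting interval of 0.681 to 3.28. No difference in Cftr was detectable at this depth. Slc12a2, which encodes the chloride-loading cotransporter NKCC1, was counted at 384, 361 and 355 CPM in control and 453, 372 and 416 CPM in OE-labelled libraries (log2 fold change 0.17, SE 0.11, edgeR adjusted p = 0.231). Ano1, a calcium-activated chloride channel, stood at 202, 218 and 267 CPM against 129, 210 and 290 CPM (log2 fold change -0.13, SE 0.22, edgeR adjusted p = 0.696). For both genes the groups overlapped.

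Kcnq1 (ENSMUSG00000009545, chromosome 7, 143106362 to 143427042, plus strand) encodes the pore of the basolateral, cAMP-responsive potassium channel of crypt cells. Its values were 121, 113 and 119 CPM in control and 248, 213 and 159 CPM in OE-labelled libraries. All OE-labelled libraries lay above control, although they differed by 1.56 times among themselves, the widest spread of the 6 separated genes. The log2 fold change was 0.81 (SE 0.15). The gene overlaps several annotated genes, the antisense RNA Kcnq1ot1 among them, and whether the counting used strand is not given in the sources used here. Kcnq1ot1 was listed at 61, 81 and 84 counts in the control group against 52, 45 and 99 in the other, with overlapping groups; the part of antisense reads in the Kcnq1 values was not tested.

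Kcne3 encodes the beta subunit that keeps KCNQ1 open in intestinal cells, and it was not among the 9 genes. It rose from 112, 117 and 124 CPM in control to 265, 264 and 270 CPM in OE-labelled libraries (log2 fold change 1.17, SE 0.10, edgeR adjusted p = 2.5e-05). The OE-labelled values were nearly level, unlike those of Kcnq1. Kcnk1, a two-pore-domain potassium channel, rose from 87.6, 90.5 and 86.2 CPM to 180, 129 and 130 CPM (log2 fold change 0.73, SE 0.14, edgeR adjusted p = 0.00253). The calcium-activated channel Kcnn4 (log2 fold change 0.34, SE 0.13, edgeR adjusted p = 0.057) and the two-pore-domain channel Kcnk5 (0.37, SE 0.15, edgeR adjusted p = 0.0835) did not pass, although their OE-labelled values also lay above all control values. Thus all 4 tested potassium channel genes outside the 9 had OE-labelled values above all control values, as 25.3% of all tested genes did, and 2 of them passed the test as higher, as 16.5% of all tested genes did. The list was chosen with earlier results known and is small, so these counts are a description. The other 9 listed genes of this group were below the count filter, 5 of them at 0 counts, Kcne1 and Kcne2 included.

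**Figure D2:**
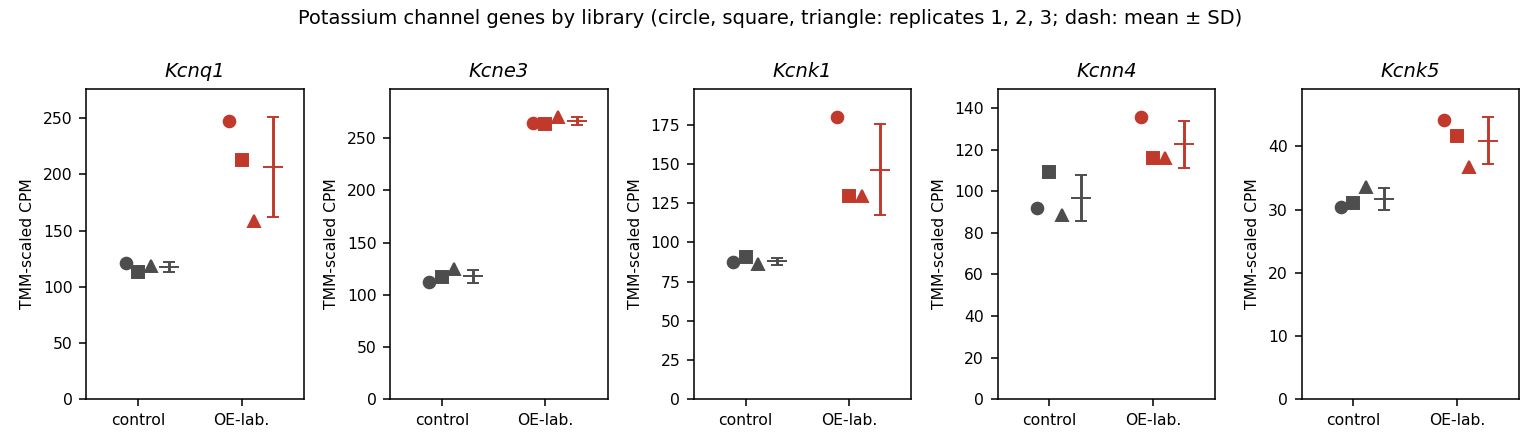
TMM-scaled CPM (vertical axis, from 0) of Kcnq1 and of the 4 other tested potassium channel genes, by library, with circle, square and triangle for replicates 1, 2 and 3 and a dash with bars for the mean and SD. Kcne3 sits at 264 to 270 CPM in the OE-labelled libraries against 112 to 124 CPM in control, and Kcnq1 spreads from 159 to 248 CPM in the OE-labelled libraries.

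Atp1b1 (ENSMUSG00000026576, chromosome 1, 164437109 to 164458355, minus strand) encodes the common beta subunit of the sodium pump, which brings the alpha subunit to the basolateral membrane. It was counted at 996, 1069 and 1071 CPM in control and 1595, 1448 and 1420 CPM in OE-labelled libraries. The log2 fold change was 0.51 (SE 0.09), and the lowest OE-labelled value was 1.33 times the highest control value. The end of the gene overlaps Nme7 on the opposite strand, which had 10 to 22 counts per library.

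Atp1b3 (ENSMUSG00000032412, chromosome 9, 96332655 to 96364442, minus strand) encodes another beta isoform. Its values were 53.0, 64.7 and 65.4 CPM in control and 70.9, 83.4 and 84.6 CPM in OE-labelled libraries. The lowest OE-labelled value was only 1.08 times the highest control value, the narrowest gap of the 6 separated genes. The log2 fold change was 0.38 (SE 0.14). With an offset for exonic length it was 0.17. Atp1b2, a further beta gene, had 0 counts in every library.

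Fxyd3 (ENSMUSG00000057092, chromosome 7, 31068172 to 31076704, minus strand) encodes a small membrane protein that modulates the sodium pump and is known from stomach, colon and several carcinomas. It stood at 263, 250 and 257 CPM in control and at 451, 417 and 410 CPM in OE-labelled libraries. Both groups were tight (CV 2.55% and 5.23%), and the log2 fold change was 0.73 (SE 0.10). Lgi4, which overlaps it on the opposite strand, had at most 2 counts in any library. None of the 6 other FXYD genes passed the count filter; Fxyd5 and Fxyd6 were the most counted, at up to 11 and 15 counts, and Fxyd1, Fxyd2 and Fxyd7 were at 0.

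The 7 genes that passed the filter differed from each other in how they ran across the OE-labelled libraries. Replicate 1 was the highest OE-labelled library for 5 of them (Aqp1, Aqp5, Kcnq1, Atp1b1 and Fxyd3), whereas Atp1b3 and Aqp11 were lowest there and highest in replicate 3. On log2 CPM relative to each gene's control mean, Aqp1 stood at 2.20, 1.95 and 1.74 in the OE-labelled replicates, Kcnq1 at 1.07, 0.85 and 0.43, and Atp1b3 at 0.22, 0.45 and 0.47. Between such profiles over the 6 libraries, the Euclidean distance was smallest for Aqp5 and Fxyd3 (0.23), followed by Kcnq1 and Fxyd3 (0.38) and Aqp5 and Kcnq1 (0.39). Aqp1 lay at least 2.05 from every other member because of the size of its difference.

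**Figure D3:**
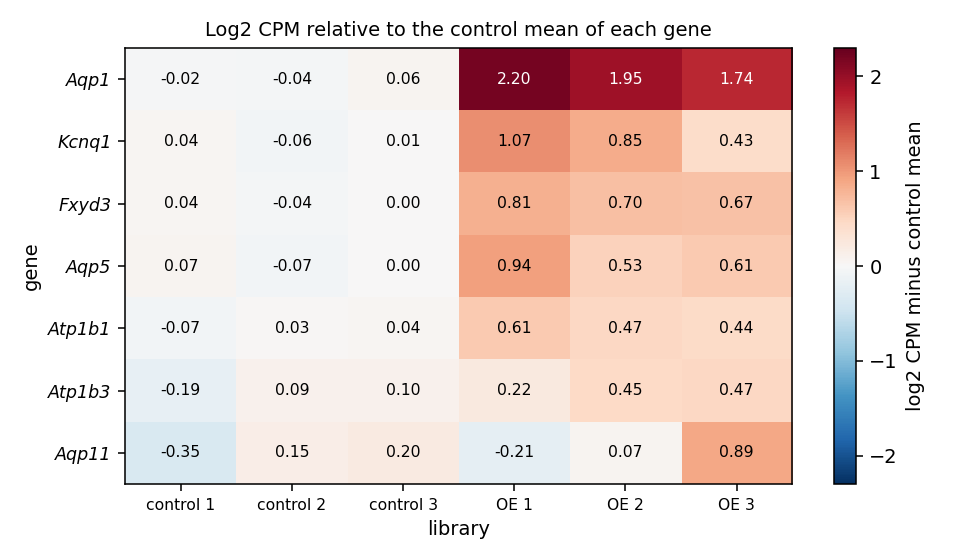
Log2 CPM minus the control mean of each gene (colour and printed value), with the 7 genes that passed the count filter as rows and the 6 libraries as columns. Aqp1 is highest in every OE-labelled library (1.74 to 2.20), and OE-labelled replicate 1 is high for Kcnq1 (1.07) but low for Aqp11 (-0.21).

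The genes whose profile lay nearest to that of Aqp1 were sought among 9243 named genes whose average log2 CPM was 3 or more. Among the nearest by the same distance were Wfdc18 (0.60), Wnk2 (0.76), Ltf (0.76) and Ly6c1 (0.81), where the median gene lay at 3.39. Wfdc18 encodes a secreted protein with a whey acidic protein domain, Ltf the iron-binding secreted protein lactoferrin, and Ly6c1 a GPI-anchored surface protein. Wnk2 is a kinase of the WNK family, which sets the activity of chloride cotransporters, and it stood at 3.23, 3.28 and 2.76 CPM in control and 12.6, 9.44 and 13.5 CPM in OE-labelled libraries. Across the 6 libraries, which share group, series and depth differences, Pearson's r of these genes with Aqp1 ran from 0.967 to 0.986. These genes were picked by likeness to Aqp1, so their differences are not further evidence for it.

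The other genes of the pathway were taken from 10 role lists that hold 115 genes of the table besides the 9. Of these, 59 were tested, 12 rose, 6 fell and 41 did not pass (edgeR adjusted p below 0.05). The share that passed, 30.5%, was close to the 29.2% of all tested genes, and their median log2 fold change was 0.13 against 0.04, so this share is no result about the lists.

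Among 13 tested chloride channel and cotransporter genes, 15.4% passed, beside 29.2% of all tested genes. Lrrc8a and Lrrc8e, subunits of the volume-regulated anion channel, rose and 11 did not pass. Lrrc8a went from 42.9, 45.0 and 41.5 CPM to 95.6, 72.4 and 73.6 CPM (log2 fold change 0.90, SE 0.15, edgeR adjusted p = 0.000883). Lrrc8e changed by 0.71 (SE 0.23, edgeR adjusted p = 0.0319), a call lost in 8 of 15 alternatives, including those without control replicate 1 or 3 or OE-labelled replicate 1 or 2. The remaining LRRC8 subunits, Lrrc8b, Lrrc8c and Lrrc8d, had log2 fold changes of -0.33, -0.14 and -0.03 and did not pass. Of 8 bicarbonate and anion exchange genes, Slc4a4, the basolateral sodium bicarbonate cotransporter NBCe1, fell from 414, 425 and 447 CPM to 329, 249 and 282 CPM (log2 fold change -0.58, SE 0.11, edgeR adjusted p = 0.00289). The cytosolic carbonic anhydrase Car13 rose by 0.76 (SE 0.20, edgeR adjusted p = 0.015), a call lost in 5 of 15 alternatives, including those without control replicate 1 or 2 or OE-labelled replicate 2. Of 6 sodium absorption genes, the scaffold of the sodium-proton exchanger NHE3, Slc9a3r1, rose by 0.59 (SE 0.13, edgeR adjusted p = 0.00472), a call lost with the GC and length offsets (lowest value 0.30). Its partner Slc9a3, the exchanger itself, had 0 counts, as did Scnn1b and Scnn1g of the epithelial sodium channel.

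Cldn2, which forms the sodium- and water-permeable pore between crypt cells, was the single tested gene of the paracellular list. It rose from 238, 231 and 221 CPM to 562, 423 and 411 CPM (log2 fold change 1.02, SE 0.13, edgeR adjusted p = 0.000226), and the groups lay well apart. Slc5a3, which imports the osmolyte myo-inositol, fell from 80.7, 74.1 and 59.9 CPM to 34.4, 24.0 and 35.5 CPM (log2 fold change -1.19, SE 0.17, edgeR adjusted p = 0.000532), 1 of 4 tested genes of the osmotic list. The osmotic stress transcription factor Nfat5 did not pass (log2 fold change -0.75, SE 0.27, edgeR adjusted p = 0.0509); OE-labelled replicates stood at 19.5, 29.9 and 54.5 CPM against 53.9 to 61.5 CPM in control.

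Of 21 tested regulators of secretion, 4 rose and 4 fell. The share that passed was 38.1%, beside 29.2% of all tested genes, and these counts are a description. Wnk2 rose by 1.92 (SE 0.31, edgeR adjusted p = 0.000917) from at most 7 counts per control library. Prkaca, the catalytic subunit of the cAMP-dependent kinase that opens CFTR, rose from 77.4, 75.5 and 72.8 CPM to 121, 132 and 103 CPM (log2 fold change 0.65, SE 0.13, edgeR adjusted p = 0.00247). Nedd4, a ubiquitin ligase related to the one that removes epithelial sodium channels, fell from 997, 1023 and 1126 CPM to 449, 496 and 712 CPM (log2 fold change -0.93, SE 0.15, edgeR adjusted p = 0.000838). The prostaglandin E2 receptor gene Ptger4 rose by 1.16 (edgeR adjusted p = 0.00806), a call lost without control replicate 3 (0.98, edgeR adjusted p = 0.0533). The membrane linker Ezr rose by 0.50 (edgeR adjusted p = 0.00418), a call lost with the GC offset (lowest value 0.28). The other 3 that fell passed more narrowly: the phosphodiesterase Pde4d had a log2 fold change of -1.26 (edgeR adjusted p = 0.0222), the kinase Oxsr1, which acts below WNK kinases, -0.92 (0.0237), and Ahcyl1 -0.36 (0.0238). All 3 calls were lost whichever control library was left out, with edgeR adjusted p from 0.0508 to 0.112, and those of Oxsr1 and Ahcyl1 also without OE-labelled replicate 2.

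**Figure D4:**
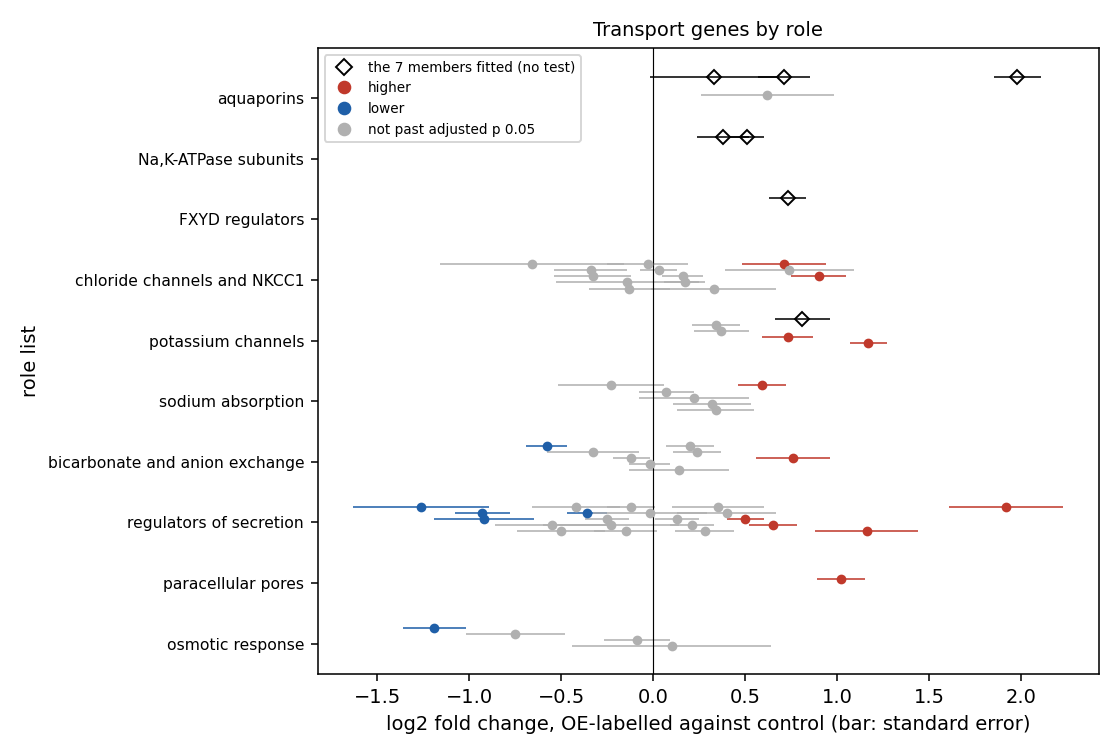
Log2 fold change of OE-labelled against control (horizontal axis, bars are standard errors) for tested transport genes by role list, with open diamonds for the 7 members fitted and circles for other tested genes (of the pump subunits only members are drawn), red where higher, blue where lower and grey where adjusted p was 0.05 or above. The members lie between 0.33 and 1.98, and the other genes lie on both sides of 0, from -1.26 (Pde4d) to 1.92 (Wnk2). The members were picked with this contrast known, so nothing is read from their lying on 1 side.

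Part of the size of the differences moved with the treatment of base composition and length. The offsets used GC content of full-length annotated transcripts and exonic length of the gene, whereas the libraries read the 3′ end. They would also remove a true difference that runs with GC or length, so the values are alternatives rather than corrected fold changes. With a GC offset the log2 fold change was 1.75 for Aqp1, 0.40 for Aqp5, 0.55 for Kcnq1, 0.39 for Atp1b1, 0.49 for Atp1b3, 0.62 for Fxyd3 and 0.40 for Aqp11. Aqp5 moved most, from a log2 fold change of 0.71 to 0.40. Its transcripts had the highest GC content of the 9 (60.6%, against a median of 50.2% over tested genes). Atp1b3, with 46.4% GC, moved upward under the same offset. Across 15 alternatives Aqp1 ran from 1.74 to 2.09, Kcnq1 from 0.54 to 0.97 and Fxyd3 from 0.62 to 0.78. Aqp5 ran from 0.39 to 0.77, Atp1b1 from 0.34 to 0.56 and Atp1b3 from 0.17 to 0.49. These 6 kept a positive sign in all 15. They were picked with this contrast known and every fit drew on the same libraries, so nothing is read from the kept sign.

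**Figure D5:**
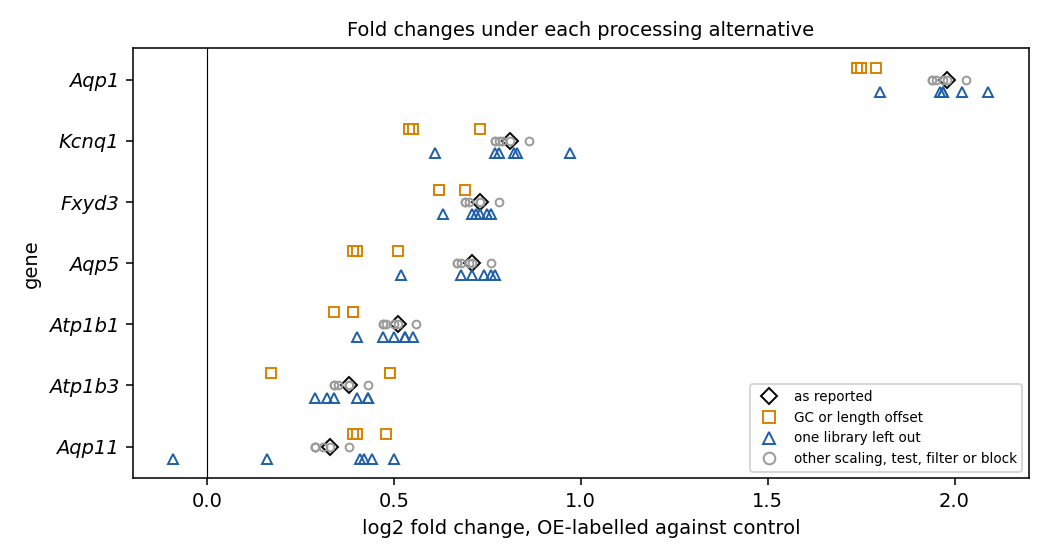
Log2 fold change (horizontal axis) of the 7 genes as reported (diamonds), with GC or length offsets (squares), with 1 library left out (triangles) and with other scaling, tests, filters or the block (circles). Aqp1 stays between 1.74 and 2.09, and Aqp11 crosses 0 in 1 fit (-0.09).

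All 7 listed epithelial markers (Epcam, Cdh1, Vil1, Krt8, Krt18, Krt19 and Cdx2) were counted in these organoid libraries. Their summed level was 3948 to 4172 CPM in control and 5325 to 6025 CPM in OE-labelled libraries. Of the 7, all tested, 4 were higher (Vil1, Krt8, Krt18 and Krt19), beside 16.5% of all tested genes, and none was lower. Epcam (log2 fold change 0.07, edgeR adjusted p = 0.586), Cdh1 (-0.12, edgeR adjusted p = 0.528) and Cdx2 (0.37, edgeR adjusted p = 0.383) did not pass. Markers of the cells outside the epithelium in which Aqp1 and Aqp4 are abundant were at or near 0. All 6 erythroid markers had 0 counts, the 6 endothelial markers summed to at most 0.922 CPM in any library with Cdh5, Tek and Plvap at 0, and the astroglial and glial markers Gfap and Sox10 had 0 counts. The 7 mesenchymal markers summed to at most 1.41 CPM.

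Other marker lists moved with the group. Goblet cell markers summed to 589.7 to 614 CPM in control and 1273 to 1488 CPM in OE-labelled libraries. Most of this sum was Spink4, at 469 to 494.5 CPM in control and 1011 to 1246 CPM in OE-labelled libraries. Of the goblet genes, 3 of 5 tested were higher (Tff3, Spink4 and Fcgbp), beside 16.5% of all tested genes, and none was lower. Muc2 (log2 fold change 0.24, SE 0.41, edgeR adjusted p = 0.697) and Clca1 (0.33, SE 0.34, edgeR adjusted p = 0.497) did not pass. Agr2 and Zg16 were below the count filter. The 8 gastric-type markers summed to 39.6 to 49.3 CPM and 116 to 154 CPM, carried by Tff2, a trefoil peptide of gastric mucous cells (log2 fold change 1.79, SE 0.16, edgeR adjusted p = 3.16e-05), while the gastric mucins Muc5ac and Muc6 had at most 1 count and Gkn2 0. The immune list (27.7 to 34.1 CPM against 46.1 to 55.5 CPM) moved through Csf1r, with Cd3e, Cd79a and Adgre1 at 0, and the glial list (49.3 to 53.5 CPM against 99.8 to 118 CPM) moved through S100b. Absorptive enterocyte markers summed to at most 1.27 CPM, with Alpi, Fabp1, Apoa1, Apoa4 and Sis at 0. The pancreatic list, counted almost wholly as Pdx1, stood at 18.8 to 32.3 CPM against 12.96 to 21.6 CPM, and none of its genes passed. The part of the goblet and gastric-type genes in the differences of Aqp1, Aqp5 and the other members was not tested.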

How the data were processed

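RNA from 6 organoid libraries was sequenced from the 3′ end with a QuantSeq forward kit, per the labels' protocols, which counts a transcript near its polyadenylated end whatever its length. The authors deposited unnormalized estimated counts per Ensembl gene, of which 2843 values (3.1% of those above 0) were fractional and were rounded here (the planned test assumed whole numbers); none belonged to the 9 genes. STAR, HTSeq and the builds mm10 and GRCm38 are named per the submitters' processing notes; annotation, strand setting and treatment of molecular identifiers and multi-mapping reads are not given in the sources used here. Intervals and floors cover counting error only.

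The groups were compared in edgeR 4.0.16 (R 4.3.3; limma 3.58.1) by the quasi-likelihood test after filterByExpr and TMM scaling, without covariates, adjusted by Benjamini-Hochberg over 10687 genes. The standard error is the log2 fold change divided by the square root of the F statistic. CPM are TMM-scaled, and log2 CPM used a prior count of 2. Positions, GC content and exonic length came from GENCODE M21 (GRCm38; 99.3% of identifiers matched), and promoter sequences from RefSeq (GRCm38.p6). On simulated counts with 200 genes changed by 1 log2 unit among 10687, edgeR recovered 70% of them, with 4.1% of calls false. The simulation held no GC trend and no series difference, and changed far fewer genes than passed here. Its shares therefore do not carry over to the calls above. DESeq2 1.42.0, other scalings and filters, the replicate block, loess offsets (span 0.5) for GC content and exonic length, a threshold of 0.01 and each library left out were tried.

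The members, role lists and marker lists were chosen with earlier results of these data known. Named genes are the members, in each role list up to 3 genes past 0.05, taken in order of p, the 5 nearest to Aqp1 and Igf2bp3; other transport and marker genes were named for their role with values seen. Some genes taken by this rule are not reported here.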

Additional observations from a re-analysis of the deposited data

How the results depend on the processing

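For the 7 members fitted, 86 of 105 values from alternatives stayed within 1 SD between replicates, 18 moved further with the same sign and 1 changed sign: Aqp11 was -0.09 without OE-labelled replicate 3 (range over left-out libraries -0.09 to 0.50). For the 18 transport genes outside the members that passed, 223 of 268 values kept direction and call and 45 no longer passed. Their number (12 higher, 6 lower) became 12 to 23 (9 to 14 higher, 3 to 9 lower) when single libraries were left out, the 3 fits without a control library each giving 3 lower. At an adjusted p below 0.01 there were 9 higher and 3 lower. Over all genes, leaving out single libraries gave 1748 to 3532 calls (1033 to 1959 higher, 715 to 1731 lower), with the lowest counts without control replicates 1, 2 and 3 (1893, 1837 and 1748). The threshold of 0.01 gave 1578 (944 higher, 634 lower), and DESeq2 gave 1059 higher. Scaling shifted the median of all log2 fold changes from 0.04 (TMM) to 0.00 (size factors of DESeq2) or 0.09 (library totals).

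Equal replicate numbers are not stated to share a culture, and deviations of equally numbered libraries correlated at 0.10, 0.02 and 0.07; control replicate 2 correlated better with OE-labelled replicate 3 (0.04). With the replicate block 3112 of all genes and 19 other transport genes passed, and with the block and GC offset 2621 and 17. Genes below about 10 counts per library, Cftr and Aqp4 among them, were limited by depth.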

Other observations

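The OE-labelled libraries were more uneven than the control libraries, over transport genes as over all genes. Some pair of OE-labelled libraries was at least 1.5 times apart for 22 of the 59 tested transport genes outside the members (37.3%) and for 30.7% of all tested genes, and some pair of control libraries for 11 (18.6%) and 16% of all. Taking replicate 1 against replicate 3, 13 of the 59 (22.0%) were at least 1.5 times lower in replicate 1 and 3 (5.08%) at least 1.5 times higher, beside 14.6% and 5.99% of all tested genes. Ratios of replicate 1 to replicate 3 were 0.178 for the chloride channel Clcn2, 0.271 for the adenylyl cyclase Adcy6, 0.414 for the carbonic anhydrase Car9, 0.428 for Oxsr1 and 0.445 for Ano1. Clcn2 had 4, 10 and 31 counts in the OE-labelled libraries and 22, 24 and 17 in control. Adcy6 had 38, 111 and 140 counts against 113, 123 and 137. Clcn2, Adcy6, Car9 and Ano1 lay below every control value in replicate 1 and near or above control in replicate 3, whereas Oxsr1 lay below every control value in all 3 OE-labelled libraries. For all 5 replicate 1 was the lowest OE-labelled library, while for Aqp1 and Kcnq1 it was the highest. The cause was not tested. Over all tested genes, which are not independent replicates, the log2 ratio of replicate 1 to replicate 3 had a Spearman rho of 0.19 with GC content. These 5 genes were singled out with their values known and are not the 5 lowest ratios. Akr1b3 (0.233) and Nfat5 (0.367) also had low ratios of replicate 1 to replicate 3.

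Guca2b, which encodes uroguanylin, a peptide that stimulates intestinal fluid secretion through guanylate cyclase C, was below the count filter, with 5, 1 and 3 counts in the control group against 8, 12 and 16 in the other. Its receptor gene Gucy2c had at most 1 count in any library.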
